A study of Mus musculus with 6 samples.

Results

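The transcripts described here are those of 42 genes of DNA replication and S phase, chosen by name, and all 42 matched a gene among the 19938 tested. For each gene the probe set annotated with exactly 1 symbol and with the highest mean over the 6 arrays was read. The arrays, Affymetrix mouse Gene 1.0 ST, measured RNA of mouse prostate cancer cells in 3 samples given valproic acid (VPA) and 3 control samples, going by the titles. Valproic acid is an anticonvulsant that inhibits histone deacetylases. Other fields describe the same arrays differently: Stra8-EGFP/Rosa26 and undifferentiated stem cells for the VPA samples, and 129SV and differentiated stem cells for the controls. The groups carry the names of the titles, and if the fields were right, strain, state of differentiation and treatment could not be told apart. The sources used here do not give the dose, how long VPA was applied or which line was grown, and each sample is described as a biological replicate. No label says whether replicates came from separate cultures, so the p-values measure only the spread between these samples, which may be technical.

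Replication begins when the origin recognition complex, with Cdc6 and Cdt1, loads the MCM helicase ring onto DNA in G1, a step called licensing that geminin (Gmnn) blocks later in the cycle. At the start of S phase the kinases Cdk2 with cyclin E and Cdc7 with Dbf4 fire the origins, Cdc45 and the GINS complex join the ring, and primase, polymerases, the sliding clamp and its loader copy the strands. Many of these genes are transcribed in late G1 under E2F factors, so their transcripts are widely read as a sign of cells entering S phase. In bulk RNA such as this, fewer cells in S phase and less transcript per cell cannot be told apart.

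No replication gene changed at an adjusted p under 0.05 in limma's moderated test over all genes, against 2.34% of all genes tested (1.71% higher and 0.632% lower with VPA). Thymidine kinase 1 (Tk1), which salvages thymidine for DNA synthesis, came nearest, with a VPA minus control log2 difference of -0.51 (SE 0.121, n = 3 per group, limma adjusted p = 0.065). At an unadjusted p under 0.05, 5 members passed (11.9%), against 18.1% of all genes. Of these, 4 genes were lower (Tk1, Uhrf1, Rfc5 and Fen1) and 1 was higher (Gins3), which is 9.52% and 2.38% of the members against 8.3% and 9.82% of all genes. With unmoderated variances 0 members passed after adjustment, but so did 0 of all genes. With a filter on low values, a trended and robust prior, array weights or the replicate block 1 member passed, Tk1. The differences ran from -0.51 to 0.21 on the log2 scale, 27 of them below 0 (64.3%, against 58.6% of all genes) and 15 above it. Their median was -0.09, against -0.035 over all genes, and their median standard error was 0.0925. All VPA values lay below all control values in 6 members (14.3%, against 12.0% of all genes) and above them in 3 (7.14%, against 11.1%). The shares lower, below 0 and without overlap lie near the background. At an unadjusted p under 0.05, the share higher, from 1 gene, lies under it, as does the share in both directions.

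**Figure D1:**
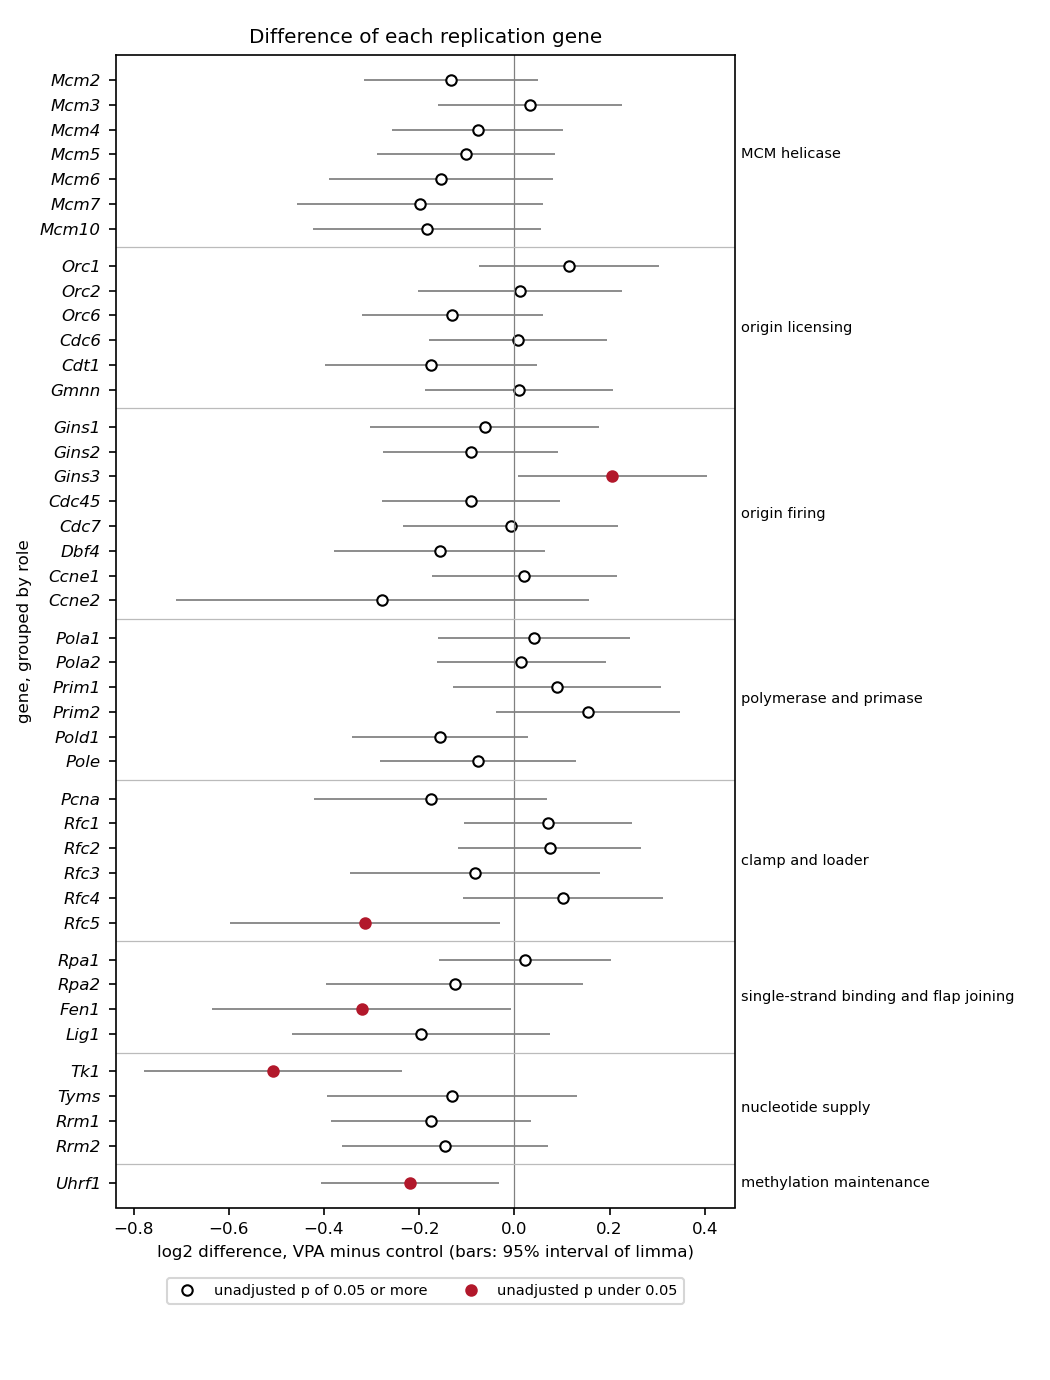
Log2 difference, VPA minus control, of each of the 42 replication genes (rows, grouped by role), with the 95% interval of limma as bars; filled points have an unadjusted p under 0.05. Tk1 lies farthest from 0 at -0.51, and 37 of the 42 intervals cross 0.

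The 3 VPA arrays were not alike for these genes, and this bears on every value below. Relative to each gene's mean over the 6 arrays, the median of the members was -0.08 in VPA replicate 1, -0.08 in VPA replicate 2 and 0.04 in VPA replicate 3, against 0.10, -0.01 and 0.04 in control replicates 1, 2 and 3. VPA replicate 3 thus lay with the controls. It was the highest of the 3 VPA arrays in 30 members (71.4%), against 36.5% of all genes. In 21 of the 42 members VPA replicates 1 and 2 both lay below all 3 controls, against 21.7% of all genes, and in 3 members (7.14%) both lay above, against 17.8%. Over all genes tested the medians stood at 0.01, -0.04 and -0.00 in VPA replicates 1, 2 and 3 and at 0.02, -0.01 and 0.01 in the controls, so that the arrays as wholes were close together. Without VPA replicate 3, 1 member was lower at an adjusted p under 0.05 (Tk1), against 1.1% of all genes, and 10 were lower at an unadjusted p under 0.05 (23.8%), against 9.67%. None was higher at either threshold, against 2.98% of all genes at the adjusted and 11.0% at the unadjusted one. The 10 were Mcm7, Mcm10, Cdt1, Pcna, Rfc5, Fen1, Lig1, Tk1, Rrm1 and Uhrf1. These counts were chosen after the values of the arrays were seen.

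**Figure D2:**
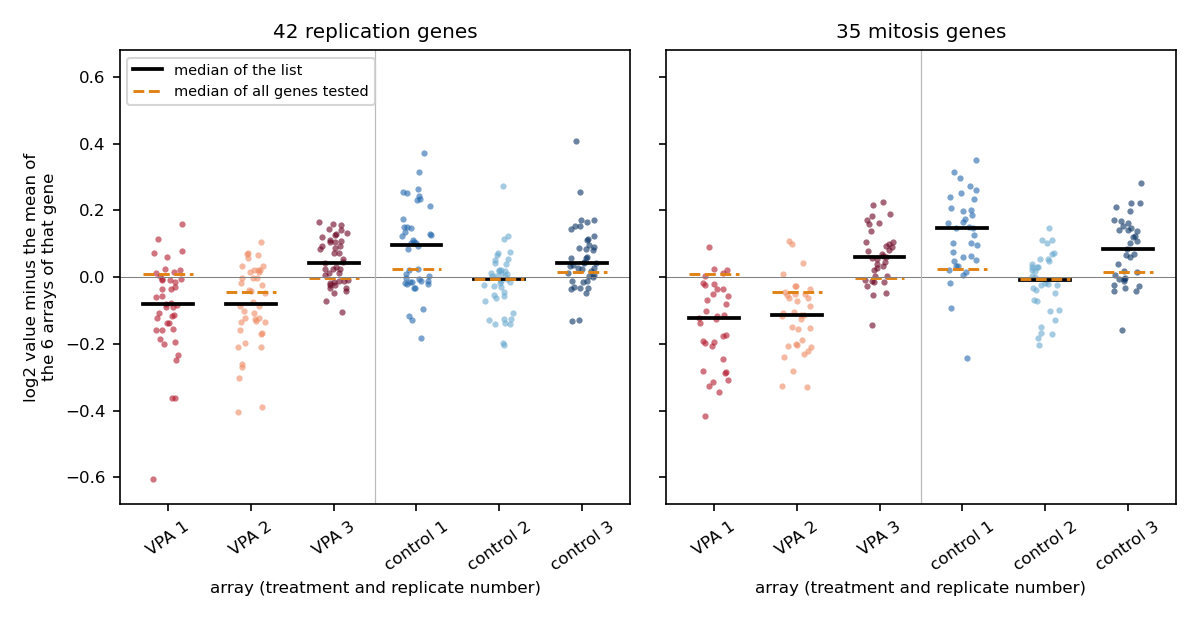
Log2 value minus the gene's mean over the 6 arrays, for each of the 42 replication genes (left) and 35 mitosis genes (right), by array, with the VPA arrays before the controls; black bars are medians of the list and dashed bars medians of all genes tested. VPA replicates 1 and 2 have medians of -0.08 for the replication genes, whereas VPA replicate 3 and control replicate 3 both have a median of 0.04.

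**Figure D3:**
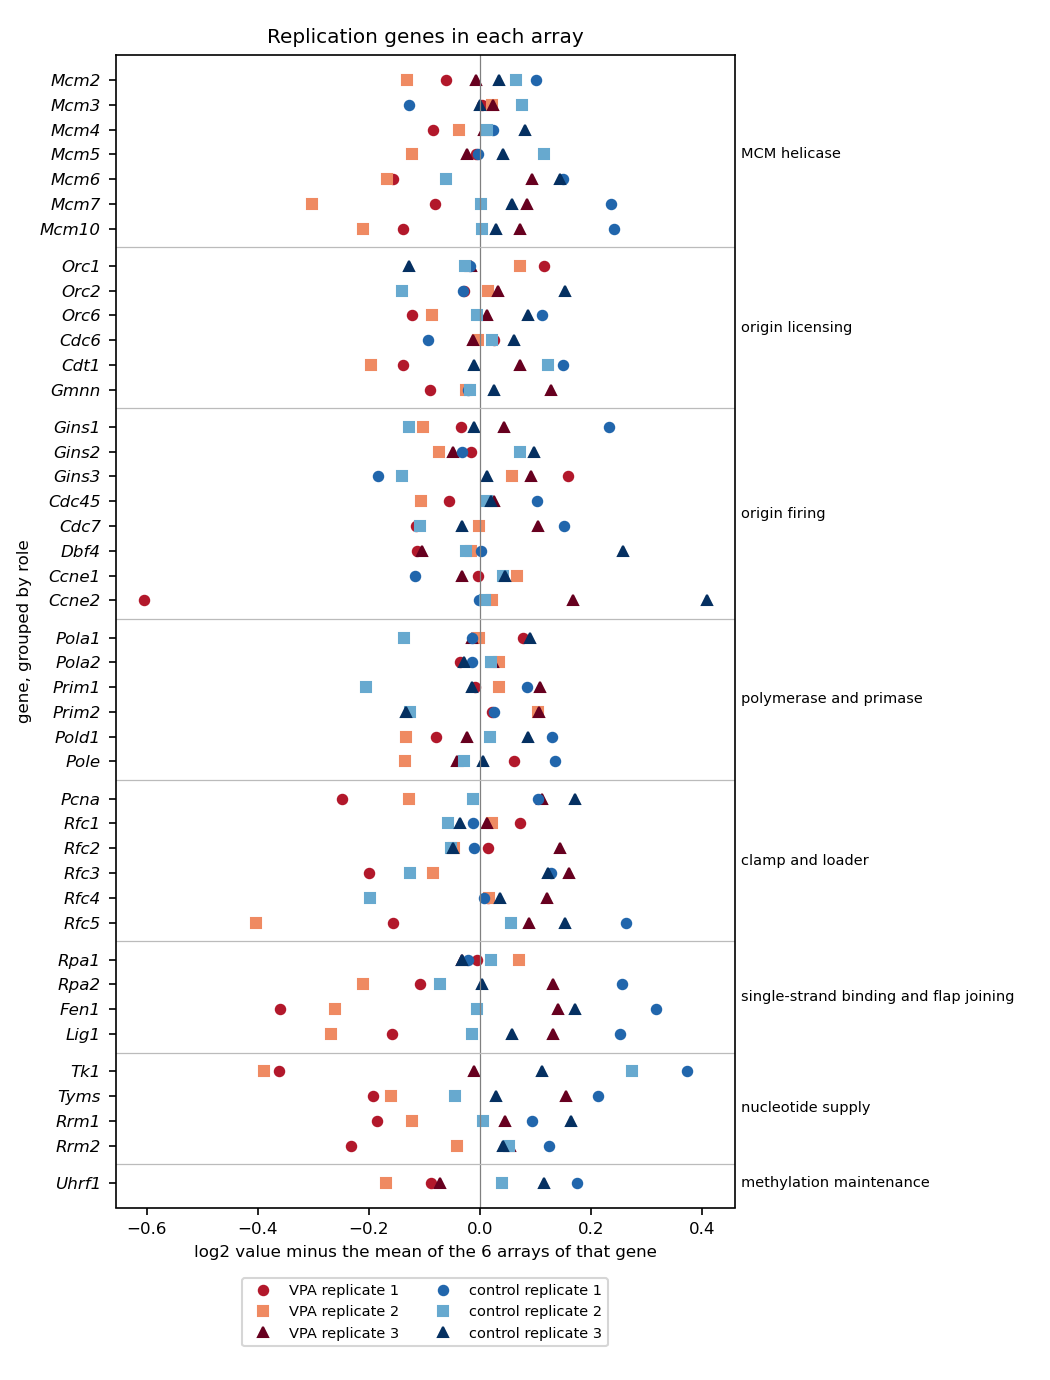
Log2 value of each replication gene in each array, minus that gene's mean over the 6 arrays; rows are genes grouped by role, reds are VPA and blues are controls. In Tk1 and Uhrf1 all VPA values lie left of all control values, and in Fen1, Lig1 and Rfc5 VPA replicate 3 lies among the controls.

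Promoter sequence was not used in the choice by name. Many genes of this kind are transcribed under E2F factors, however, so the share of E2F words is not independent of that choice. RefSeq promoter windows of build GRCm38.p6, from 250 bases before to 50 after a transcript start, were found for 34 members. The 8 without a window were Mcm4, Gmnn, Gins1, Gins2, Ccne2, Prim2, Pole and Rfc2. An E2F word, taken as TTTCCCGC, TTTGGCGC, TTTCGCGC or TTTGCCGC on either strand, occurred in 13 of the 34 (38.2%), against 27.9% of 68 other S-phase genes, 9.68% of 31 mitosis genes and 3.48% of 15614 tested genes with a window. The other 21 members with a window had none. By single windows the share was 31.7%, against 2.99% of the 19177 windows of tested genes and 2.26% of all 32851 windows of the table. A CCAAT box on either strand occurred in 21 members (61.8%), against 34 of the 68 other S-phase genes, 77.4% of the mitosis genes and 41.7% of the tested genes. The members' windows had a median GC content of 60.1%, against 57.5%. Matches of these words can overlap each other, and a match does not show that a factor binds there. Stretches upstream of the annotated gene are printed for the 4 members with an E2F word wholly upstream of the annotated span of the gene, with the words in capitals, and for Tk1, the member with the largest difference, which had no E2F word in its window.
Mcm5: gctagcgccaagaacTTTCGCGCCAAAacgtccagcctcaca
Mcm6: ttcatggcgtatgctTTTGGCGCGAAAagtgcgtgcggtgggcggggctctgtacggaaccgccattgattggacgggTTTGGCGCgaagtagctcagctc
Gins3: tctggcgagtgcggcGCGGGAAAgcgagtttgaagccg
Rfc3: agtgacgtcgcacgcTTTCGCGCtc
Tk1: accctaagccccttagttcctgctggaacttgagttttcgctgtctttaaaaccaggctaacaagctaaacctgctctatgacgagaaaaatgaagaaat
The stretches are written from 5′ to 3′ in the direction of the gene. They lie at chr8:75109341-75109382 on the plus strand (Mcm5), chr1:128359730-128359830 on the minus strand (Mcm6), chr8:95633503-95633540 on the plus strand (Gins3), chr5:151651209-151651233 on the minus strand (Rfc3) and chr11:117826088-117826187 on the minus strand (Tk1). The words of Mcm7, Orc1, Cdc6, Pola1 and Uhrf1 that precede a transcript start lie inside the annotated span and are not printed. Rfc3 has a further word that begins at its start site and is not printed. In Mcm5, and in the upstream site of Mcm6, 2 words on opposite strands overlap to one run of 12 bases.

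**Figure D4:**
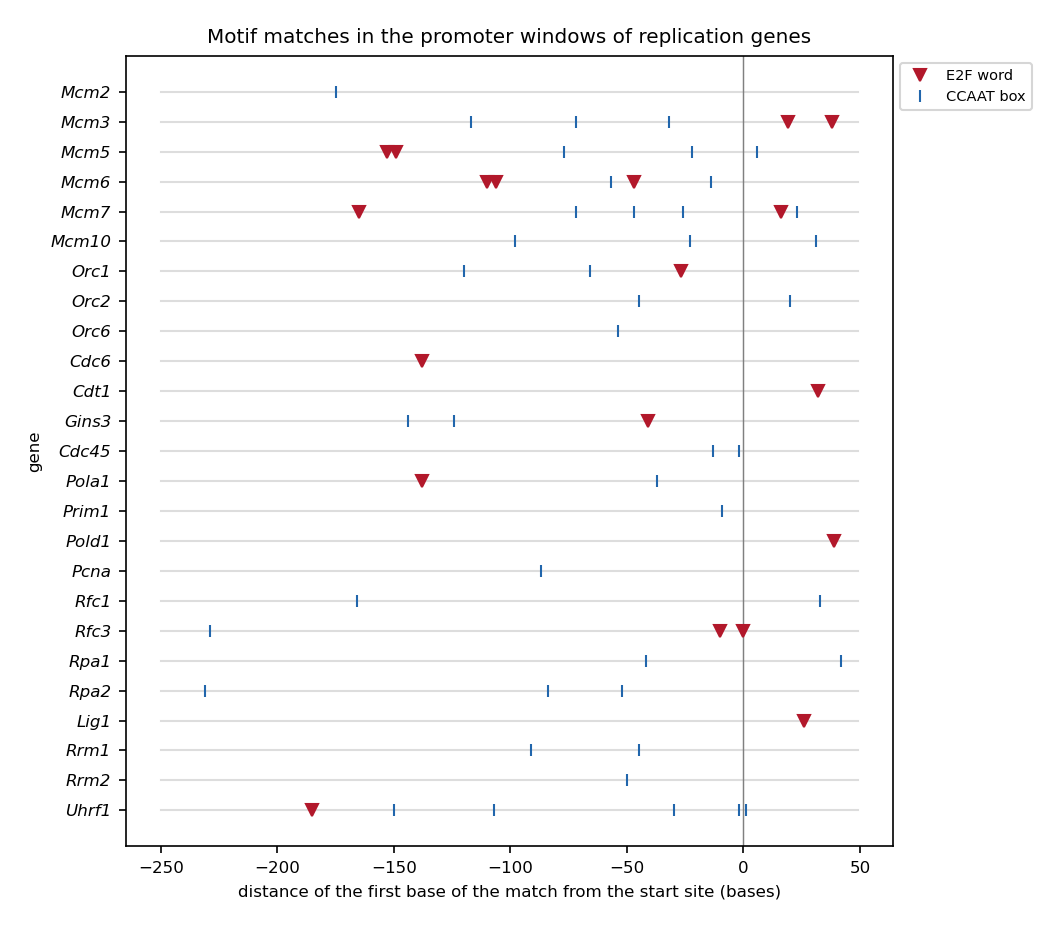
Distance in bases from the transcript start to the first base of each E2F word (triangles) and CCAAT box (ticks), for the 25 replication genes with at least 1 match; windows of genes with several starts are laid over each other. E2F words lie on both sides of the start, from -185 in Uhrf1 to 39 in Pold1.

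The differences of members with and without an E2F word covered overlapping ranges. The 13 with a word had a median VPA minus control log2 difference of -0.10, with a range from -0.22 to 0.21, and 8 of them were below 0. The 21 without one had a median of -0.13, with a range from -0.51 to 0.10, and 14 were below 0. The 8 without a window had a median of -0.07. Without VPA replicate 3 the medians were -0.18, -0.16 and -0.08. No test of these medians was made, since members are not replicates.

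Among the genes of nucleotide supply, all 4 had differences below 0 and none passed the test over all genes. Tk1 had log2 values of 9.91, 9.89 and 10.26 in the VPA arrays, against 10.65, 10.55 and 10.39 in the control arrays. The groups did not overlap, and VPA replicates 1 and 2 lay well below VPA replicate 3, which came close to the lowest control. The mean was 10.02 ± 0.21 with VPA and 10.53 ± 0.13 in controls (SD, n = 3 each), a ratio of 0.704 with a 95% interval of the log2 difference from -0.78 to -0.24. An exact permutation test of the 6 values, two-sided, returned p = 0.1, and no smaller p is possible with 3 arrays per group. The call of Tk1 turned on the setting: its adjusted p was under 0.05 in 5 of 15 alternatives, and it ranged from 0.0178 without VPA replicate 3 to 0.294 with unmoderated variances. It was 0.0446 with the replicate number as a block. Tk1 has a second probe set, which gave a difference of -0.40, with values of 9.16, 9.10 and 9.41 with VPA and 9.71, 9.62 and 9.52 in controls. Both probe sets therefore placed all VPA values below all control values. Whether they read different sequence was not tested, so they may not be independent.

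The other genes of nucleotide supply make deoxynucleotides anew. Rrm1 and Rrm2, the large and small subunits of ribonucleotide reductase, were at -0.18 (SE 0.0939, adjusted p = 0.363) and -0.15 (SE 0.0961, adjusted p = 0.454). Tyms, thymidylate synthase, which methylates dUMP to dTMP, was at -0.13 (adjusted p = 0.58). In Rrm1, Rrm2 and Tyms VPA replicates 1 and 2 lay below all controls, and in all 4 genes VPA replicate 3 was the highest VPA array.

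Uhrf1, which recognises hemimethylated DNA behind the fork and recruits Dnmt1, had log2 values of 11.16, 11.08 and 11.17 in the VPA arrays, against 11.42, 11.28 and 11.36 in the control arrays. The groups did not overlap, and here VPA replicate 3 lay with the other VPA arrays. The difference was -0.22 (SE 0.0834, limma adjusted p = 0.206), and with any single array left out it stayed between -0.25 and -0.19. Dnmt1 itself, the maintenance methyltransferase, was at -0.19 (adjusted p = 0.345).

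The MCM genes encode the helicase subunits Mcm2 to Mcm7 and Mcm10, a factor that helps to activate the helicase. None of the 7 passed, 6 had differences below 0, and their median was -0.13. The values were -0.13 for Mcm2, -0.08 for Mcm4, -0.10 for Mcm5, -0.15 for Mcm6, -0.20 for Mcm7, -0.18 for Mcm10 and 0.03 for Mcm3, with adjusted p from 0.399 to 0.867. All VPA values lay below all controls in Mcm2, Mcm4 and Mcm5, by small steps: Mcm2 had 11.81, 11.74 and 11.86 with VPA, against 11.97, 11.94 and 11.91 in controls. In Mcm6 and Mcm7 VPA replicate 3 overlapped the controls. Of the 6 ring subunits, 5 had VPA replicates 1 and 2 below all controls, Mcm3 being the exception.

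Origin licensing genes showed no common direction: 2 of 6 were below 0, the median was 0.01, and none passed. Orc1, the largest subunit of the recognition complex, had values of 8.38, 8.34 and 8.25 with VPA, against 8.25, 8.24 and 8.14 in controls. These groups did not overlap, but the lowest VPA value and the highest control value were the same to 2 decimals, and the difference was 0.11 (SE 0.0843, adjusted p = 0.503). Orc2 and Orc6, further subunits, were at 0.01 and -0.13, and the loading factors Cdc6 and Cdt1 were at 0.01 and -0.17 (adjusted p 0.959, 0.447, 0.972 and 0.387). Gmnn, geminin, the inhibitor of Cdt1, was at 0.01 (adjusted p = 0.965), and its 95% interval from -0.19 to 0.21 bounds what 3 arrays per group could show.

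Of the 8 genes that fire origins none passed, and 6 were below 0. Gins3, a subunit of the GINS complex of the helicase, was higher at an unadjusted p of 0.0434 but not after adjustment (0.26). It had log2 values of 9.09, 8.99 and 9.03 in the VPA arrays, against 8.75, 8.80 and 8.95 in the control arrays, a difference of 0.21 (SE 0.0884). The groups did not overlap. Gins1 and Gins2, of the same complex, were at -0.06 and -0.09 (adjusted p 0.789 and 0.584). Gins4, a subunit outside the 42 members, was at -0.06 (adjusted p = 0.725). The measured subunits thus did not share a direction, Gins3 being the exception, though the differences between them were not tested. Cdc45, a further part of the active helicase, was at -0.09, Cdc7 at -0.01 and its activator Dbf4 at -0.16 (adjusted p 0.592, 0.976 and 0.433).

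The cyclin E genes activate Cdk2 at the start of S phase. Ccne1 was at 0.02 (adjusted p = 0.922). Ccne2 was at -0.28 with the largest standard error of the 42 members, 0.193 (adjusted p = 0.477), since its values were 8.88, 9.51 and 9.65 with VPA, against 9.48, 9.49 and 9.89 in controls. Its low value came from VPA replicate 1 alone, and without that array the difference was -0.04.

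The polymerase and primase genes lay close to 0, with a median of 0.03, and none of the 6 passed. Prim2, the large subunit of primase, which starts each new strand with an RNA primer, had values of 10.02, 10.11 and 10.11 with VPA, against 10.03, 9.88 and 9.87 in controls. Control replicate 1 lay among the VPA values, and the difference was 0.16 (SE 0.0859, adjusted p = 0.378). Prim1, the catalytic subunit, was at 0.09, and Pola1 and Pola2, the subunits of polymerase alpha, were at 0.04 and 0.01 (adjusted p 0.658, 0.838 and 0.941). Pold1, the catalytic subunit of the lagging-strand polymerase delta, was at -0.16 (adjusted p = 0.355), with all VPA values, from 9.15 to 9.26, below all controls, from 9.30 to 9.41. Pole, of the leading-strand polymerase epsilon, was at -0.08 (adjusted p = 0.69).

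The sliding clamp Pcna and the 5 genes of its loader, replication factor C, did not pass and differed in sign. Rfc5, a small loader subunit, had log2 values of 10.12, 9.87 and 10.36 in the VPA arrays, against 10.54, 10.33 and 10.42 in the control arrays. VPA replicate 3 lay above control replicate 2, so the groups overlapped, and the difference was -0.31 (SE 0.126, adjusted p = 0.228). It was -0.44 without VPA replicate 3 and -0.19 without VPA replicate 2. Rfc4, another small subunit, had 11.97, 11.98 and 12.08 with VPA, against 11.97, 11.76 and 12.00 in controls, a difference of 0.10 (SE 0.0936, adjusted p = 0.595). Rfc1, the large subunit, was at 0.07 with VPA values above all controls, and Rfc2 and Rfc3 were at 0.07 and -0.08 (adjusted p 0.664, 0.675 and 0.739).

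Pcna had values of 11.56, 11.68 and 11.92 with VPA, against 11.91, 11.80 and 11.98 in controls. VPA replicates 1 and 2 were below all controls and VPA replicate 3 among them, and the difference was -0.18 (SE 0.109, adjusted p = 0.425). The RefSeq table lists 2 Pcna pseudogenes, Pcna-ps1 and Pcna-ps2, and near-identical copies can share probes, so the Pcna value is uncertain. Its second probe set gave -0.17.

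Single-strand binding and the joining of Okazaki fragments were covered by 4 genes, none of which passed. Fen1, the nuclease that removes the flap before each fragment, had log2 values of 8.78, 8.88 and 9.28 in the VPA arrays, against 9.46, 9.13 and 9.31 in the control arrays. VPA replicate 3 lay between the control values, and the difference was -0.32 (SE 0.14, adjusted p = 0.265). It was -0.47 without VPA replicate 3 (adjusted p = 0.0628). Lig1, the ligase that seals the nick, was at -0.20 (adjusted p = 0.422), and there too VPA replicates 1 and 2 lay below all controls and VPA replicate 3 among them. Rpa1 and Rpa2, subunits of the single-strand binding protein, were at 0.02 and -0.13 (adjusted p 0.908 and 0.61).

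Other genes of S phase were taken from 5 lists with 86 entries, of which 82 were measured. One fell, 1 rose and 80 did not pass, with a median of -0.03. The 2 calls are 2.44% of the genes measured, near the 2.34% of all genes. Dna2, a nuclease and helicase that trims long flaps in concert with Fen1, fell by 0.70 in log2 units (SE 0.117, limma adjusted p = 0.0222). Its values were 8.65, 8.54 and 8.89 with VPA, against 9.56, 9.26 and 9.36 in controls, and the groups did not overlap. Tfdp2, a DP protein that binds DNA as the partner of E2F factors, rose by 0.66 (SE 0.112, adjusted p = 0.0227), with values of 10.54, 10.35 and 10.33 with VPA, against 9.55, 9.78 and 9.91 in controls. VPA replicate 3 lay below all controls for Dna2 and above them for Tfdp2.

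Each call was lost when any of 4 arrays was left out. For Dna2 the adjusted p was 0.087 without VPA replicate 1, 0.0882 without VPA replicate 2, 0.0934 without control replicate 1 and 0.0697 without control replicate 3. For Tfdp2 it was 0.0915 without VPA replicate 1, 0.0769 without VPA replicate 2, 0.0877 without control replicate 1 and 0.051 without control replicate 3. They were also lost with every probe set tested (0.151 for each) and with unmoderated variances (0.227 and 0.222).

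**Figure D5:**
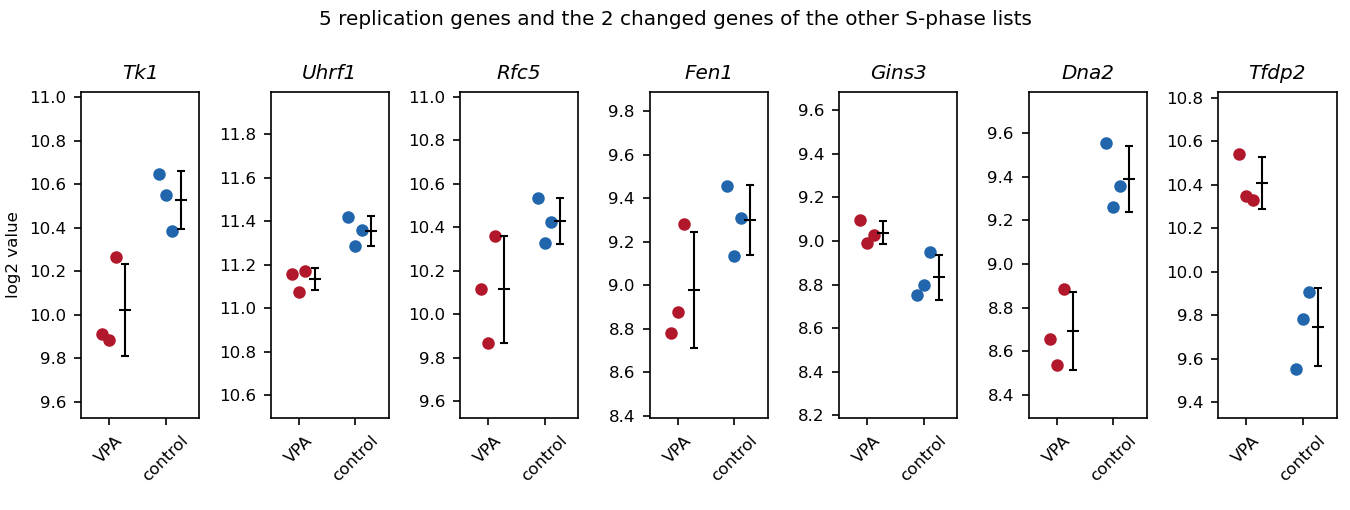
Log2 values of 5 replication genes and of Dna2 and Tfdp2 in the 3 VPA arrays (red) and the 3 control arrays (blue), with the mean and SD as bars; each panel spans the same log2 range. VPA replicate 3 is the third red point, which lies among the controls in Rfc5 and Fen1 and apart from them in Dna2 and Tfdp2.

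None passed in the remaining lists. Of 17 other licensing and firing genes, Orc3, a recognition complex subunit, was at 0.34 and Mcm9, a helicase of repair, at -0.23 (adjusted p 0.141 and 0.181). Of 14 other genes of nucleotide supply, Cad, which starts pyrimidine synthesis, was at -0.36 and Nme2, a nucleoside diphosphate kinase, at -0.33 (adjusted p 0.114 and 0.157). With the replicate number as a block the adjusted p of Cad was 0.0446. Of 12 genes of chromatin assembly and methylation at forks, the heterochromatin protein gene Cbx5 was at -0.26 and the histone chaperone gene Asf1a at 0.33 (adjusted p 0.157 and 0.159). The E2F genes E2f1, E2f2 and E2f3 were at 0.04, 0.04 and -0.09 (adjusted p 0.89, 0.829 and 0.69).

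VPA replicate 3 was the highest VPA array in 39 of the 82 other S-phase genes (47.6%) and in 30 of 35 mitosis genes (85.7%), against 36.5% of all genes. The medians of the other S-phase genes were -0.01, -0.05 and 0.02 in VPA replicates 1, 2 and 3, against 0.05, -0.02 and 0.01 in control replicates 1, 2 and 3. Of the 35 mitosis genes none passed, and 27 were below 0 (77.1%, against 58.6% of all genes). At an unadjusted limma p under 0.05, 8 of the 35 were lower and 0 higher, against 8.3% and 9.82% of all genes. The medians of the mitosis genes were -0.12, -0.11 and 0.06 in VPA replicates 1, 2 and 3, against 0.15, -0.01 and 0.08 in control replicates 1, 2 and 3. Kif20a and Kif2c, mitotic kinesin genes, were at -0.36 and -0.38 (adjusted p 0.0795 and 0.149). Kif20a passed with the replicate block (adjusted p = 0.0445), with the trended and robust prior (0.0395) and without VPA replicate 3 (0.047). Without VPA replicate 3, Kif2c, Cdc20 and Plk1 passed too (0.0373, 0.0449 and 0.0463). Mki67, a marker of cycling cells, was at 0.00, with values of 12.48, 12.39 and 12.51 with VPA, against 12.48, 12.45 and 12.45 in controls.

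Cell type markers were read for the label check, without a detection call, which these values do not carry. Of 6 measured prostate genes none changed, and the list averaged from 6.89 to 6.92 in the VPA arrays and from 6.79 to 6.94 in the controls. The single genes lay at unlike levels: probasin (Pbsn) was no higher than 3.76 in any array, whereas Fkbp5 lay between 10.15 and 10.41. Hoxb13 lay between 7.86 and 8.04, Psca between 6.69 and 7.82, Tmprss2 between 6.46 and 6.66 and Hoxd13 between 5.85 and 5.96. Of 10 pluripotency genes none changed, and the list averaged from 6.38 to 6.50 with VPA and from 6.53 to 6.71 in controls. The difference was below 0 in 9 of these 10, against 58.6% of all genes. At an unadjusted limma p under 0.05, 3 of the 10 were lower and 0 higher, against 8.3% and 9.82% of all genes. Zfp42 stayed between 4.13 and 4.43 in every array and Sox2 between 10.98 and 11.71. None of 8 epithelial and 7 fibroblast genes changed. The epithelial list averaged from 6.67 to 6.80 with VPA and from 6.62 to 6.85 in controls. The fibroblast list averaged from 9.08 to 9.28 with VPA and from 9.13 to 9.29 in controls, with Dcn no lower than 13.98 and Lum no higher than 4.24. Of 6 leukocyte genes 1, Cd53, fell (by 0.88, limma adjusted p = 0.0373), with list averages from 6.83 to 6.89 with VPA and from 7.01 to 7.21 in controls. The part of these markers in the values of the replication genes was not tested.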

How the data were processed

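Total RNA was labelled and hybridised to one array per sample, per the labels' protocols. The values deposited by the authors are on a log2 scale, and the submitters' processing notes name RMA and Expression Console. RMA includes quantile normalization, which would hide a change shared by most genes. Array medians were 7.15 to 7.18. Of 35556 probe sets, 21789 had exactly 1 symbol, updated by Entrez identifier through RefSeq GRCm38.p6 (0 changed).

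The deposited values were fitted without further normalization in limma 3.58.1 (lmFit, then eBayes; R 4.3.3) over 19938 genes, group as the only term, two-sided, with Benjamini-Hochberg adjustment. The test was checked on simulated data. The number of arrays limits the precision. All 42 members would pass a filter of log2 6 in at least 3 arrays, and none was applied. Replicate numbers were not taken as pairs, since no label gives a pairing. Same-numbered arrays had correlations of their deviations of 0.084, 0.451 and 0.284, each the highest for its VPA array. The fit with the replicate number as a block is therefore given as an alternative.

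The members and lists were chosen with earlier results of these data known. Full values were given for members with an unadjusted p under 0.05 and for the 4 with the smallest p in each direction, and for each other list the changed genes or else the 2 with the smallest p. Ccne2, Pcna, Mcm2, Gins4, Dnmt1, Mki67, Cdc20, Plk1, the E2f genes and the markers named were chosen after their values were seen. Alternatives are in the closing section.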

Additional observations from a re-analysis of the deposited data

How the results depend on the processing

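The median difference of the 42 replication genes, -0.09, lay from -0.12 to -0.06 with single arrays left out, and no alternative turned its sign. The count of changed members, 0, was 1 (Tk1) with the filter on low values, a trended and robust prior, array weights or the replicate block, and from 0 to 1 with single arrays left out. Tk1 then had an adjusted p of 0.0491, 0.0425, 0.0476 or 0.0446, and 0.0178 without VPA replicate 3. Members lower at an unadjusted p under 0.05 numbered from 1 to 10 with single arrays left out, the 10 without VPA replicate 3, and 2 with every probe set tested. Members higher numbered from 0 to 1 with single arrays left out, 0 with a second quantile normalization or every probe set tested, and 2 with unmoderated variances. Members with all VPA values below all controls numbered from 7 to 21 with single arrays left out, and members with all above from 3 to 6, or 0 with a second quantile normalization. Changed genes of the other lists numbered 0 with unmoderated variances, with every probe set tested or at an adjusted p under 0.01, 4 with the replicate block, and from 0 to 6 with single arrays left out. Of all genes, 467 changed, against 0 with unmoderated variances, 2 with every probe set tested, 43 at an adjusted p under 0.01, 714 with array weights, 1199 with the replicate block, and from 20 without control replicate 1 to 815 without VPA replicate 3. Leaving out VPA replicate 3 and control replicate 2 together, chosen after seeing the data, gave 2 changed members (Tk1 and Fen1), 14 lower and 0 higher at an unadjusted p under 0.05, 24 below and 5 above all controls, 13 changed genes in the other lists and 1349 in all. For omissions other than VPA replicate 3 alone, shares over all genes at an unadjusted p under 0.05 or without overlap are not given. Those counts of members cannot be read against a background.

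Differences near 0 turned sign in 12 members. With a second quantile normalization Orc2 was at -0.006 and Pola2 at -0.0042, with array weights Orc2 was at -0.0063, and with arrays centred on their medians Cdc7 was at 0.0045. Without both arrays Orc2 was at -0.0678, Gmnn at -0.0588, Prim1 at -0.0235 and Rfc4 at -0.0072. With single arrays left out the ranges were -0.0223 to 0.0798 for Mcm3, -0.0548 to 0.0914 for Orc2, -0.0382 to 0.0399 for Cdc6, -0.052 to 0.0562 for Gmnn, -0.1421 to 0.0382 for Gins1, -0.0627 to 0.0663 for Cdc7, -0.0329 to 0.048 for Ccne1, -0.0168 to 0.0961 for Pola1 and -0.0076 to 0.044 for Rpa1. The cause of these moves was not tested. Whether replicate numbers pair the arrays was not tested. Each VPA array correlated best with the control array of its own number (0.084, 0.451 and 0.284). Control replicate 1, however, correlated better with VPA replicate 3 (0.2) than with VPA replicate 1 (0.084). Array number limits all of these values.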
